A study of Rattus norvegicus with 12 samples.

Results

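The genes described here have very short 3' untranslated regions (3' UTRs), the stretch of an mRNA between the stop codon and the polyA tail. The authors' deposited length table gives a 5' and a 3' UTR length in bases for each gene model in control and in picrotoxin cultures. A gene was taken when its 3' length, as the median over its models, was at most 150 bases in control cultures and differed by less than 500 bases between the arms. That held for 1324 of the 9294 genes with a 3' length above 0 in both arms, or 14.2%. A further 69 genes were as short in control cultures but were left out for a difference of 500 bases or more. The genes were chosen by these lengths, so the lengths are given as a description and were not tested.

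The libraries come from cultures of the hippocampus of Sprague-Dawley rat embryos (E18), enriched for neurons. Control cultures received vehicle and picrotoxin cultures received picrotoxin at 18 days in vitro, both for 48 h, and RNA was taken at 20 days in vitro. Picrotoxin closes the channel of GABA-A receptors, which removes fast inhibition and leaves neurons firing more. Each arm has 3 polyA RNA libraries, described as biological replicates and numbered 3, 10 and 20; these numbers are called cultures here. The labels name no altered genotype. They give neither the dose of picrotoxin nor the number or sex of the embryos behind a culture. The labels' "normal" hippocampal cultures, which are not enriched for neurons, were not analysed here.

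A 3' UTR carries most of the sites through which microRNAs and RNA-binding proteins act on the stability, translation and transport of an mRNA, and in neurons long 3' UTRs are common. Genes of the basic machinery of the cell, such as those for ribosomal proteins and for subunits of the respiratory chain, are known for compact transcripts with short untranslated regions at both ends. Ribosomal protein mRNAs also begin with a terminal oligopyrimidine (TOP) tract, a C followed by an unbroken run of C and T at the cap, through which growth signals control their translation. Genes for respiratory subunits often carry sites for the transcription factor GABP in their promoters.

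The windows below show the start of 6 ribosomal protein genes with very short 3' UTRs, chosen among those of highest level because they show the tract that most of this class shares. Each window runs 5' to 3' on the gene's strand from 15 bases before to 15 bases after the annotated start, taken from RefSeq on the rat build GRCr8. Capitals mark a C followed by 7 or more bases that are each C or T. Rpsa is shown because its window holds no such run.
Rpl35, chr3:43165907-43165936, minus strand: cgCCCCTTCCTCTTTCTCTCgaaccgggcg
Rpl19, chr10:83519049-83519078, plus strand: cgcgaccagcaagCTCTTTCCTTTCgctgc
Rps21, chr3:187724023-187724052, plus strand: gaacgagccaCTTCCTTTCTgtgttctccg
Rps15, chr7:10068101-10068130, minus strand: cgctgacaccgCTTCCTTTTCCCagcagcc
Rpl23, chr10:83272170-83272199, minus strand: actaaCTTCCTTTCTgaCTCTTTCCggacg
Rpsa, chr8:128728864-128728893, plus strand: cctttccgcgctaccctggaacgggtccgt
The 3' lengths of these genes in control cultures were 28 bases for Rpl35, 27 for Rpl19, 54 for Rps21, 22 for Rps15, 41 for Rpl23 and 36 for Rpsa. A TOP-like run on the gene's own strand lay in the window of 37 of the 61 ribosomal protein genes matched to a RefSeq promoter, or 60.7%. On the opposite strand such a run lay in 1 of the 61 windows. In all 33469 promoters of the RefSeq table the share on the gene's own strand was 8.40%, and in the 6052 other genes with a length and a promoter it was 8.54%. Among the 1031 short 3' UTR genes with a promoter it was 11.9%, and among the 849 of them in none of the gene lists used here it was 8.83%. Of 16 translation factor genes with a promoter 5 held a run, of 35 respiratory genes 2 did, and of 22 proteasome genes 0 did.

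The stretches below come from the promoters of 3 respiratory genes with short 3' UTRs and show where the letters CCGGAAG, a core that GABP binds, lie close to the start. Capitals mark these letters or their reverse complement CTTCCGG.
Cox5b, chr9:46417807-46417836, plus strand: cttgctctgtctgttcCCGGAAGtgcatct
Uqcrq, chr10:38089982-38090011, minus strand: ttccgctcctcCCGGAAGtgacgtgcaaag
Uqcrc2, chr1:184599201-184599230, plus strand: ggaaacttggtCTTCCGGcaccatcttgct
In Cox5b the match begins 14 bases before the start, in Uqcrq 22 bases and in Uqcrc2 28 bases. Searched on both strands from 250 bases before to 50 bases after the start, CCGGAAG was present in 10 of 35 respiratory genes (28.6%) and in 258 of the 1031 short 3' UTR genes (25.0%). Its share was 43.8% in translation factor genes, 27.9% in ribosomal protein genes, 27.3% in proteasome genes and 24.1% in short 3' UTR genes of no list. It was present in 17.9% of the 6052 other genes with a length and a promoter, and in 8.75% of all promoters of the table.  TATAAA, searched the same way, was found in 6.30% of the short 3' UTR genes, 5.88% of the other genes with a length and 14.2% of all promoters. These are matches of letters and not measured sites. TOP-like runs were searched apart from these motifs, and a run can overlap the reverse complement CTTCCGG at its first letters.

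Control 3' lengths of the 1324 genes had a median of 84 bases, with quartiles of 51 and 120. A length under 20 bases was listed for 86 genes (6.50%) and under 10 bases for 43. The 5 shortest were Atf6b, a stress sensor of the endoplasmic reticulum, and Lin7a, a synaptic scaffold protein, at 1 base each, and Nudt22, Smpd2 and Tars, the last a threonyl-tRNA synthetase, at 2 bases each. The sources used here do not say how the authors called the ends of transcripts, and lengths of a few bases stand as the table lists them. Just inside the limit, at 150 bases, were Atp5b, Gpr22, Gtf2h5 and Tmem175. Just outside it, at 151 bases, were Hagh, Hm13, Snrpb2 and Arl6ip4.

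**Figure D1:**
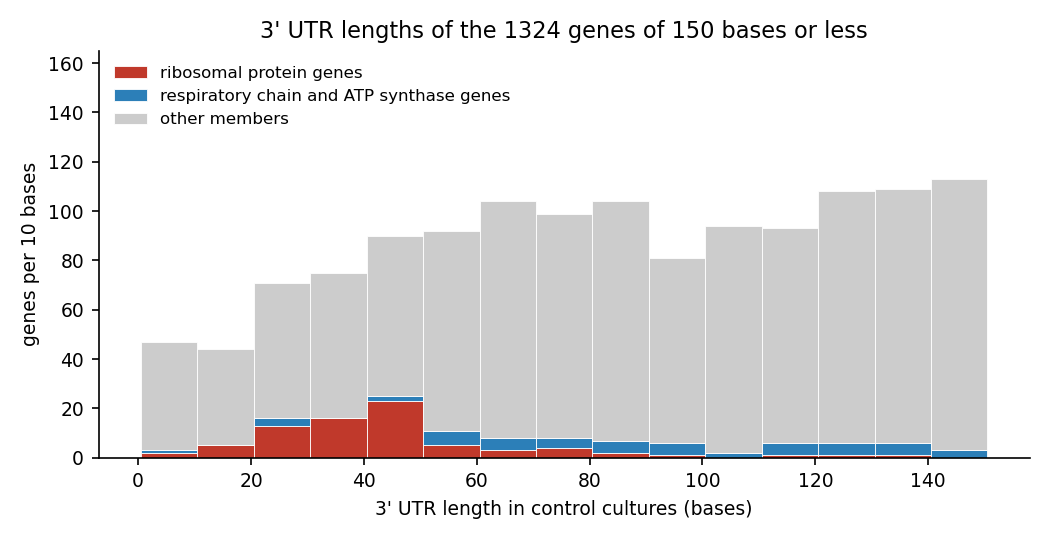
Number of genes (vertical axis, per 10 bases) by 3' UTR length in control cultures in bases (horizontal axis) for the 1324 genes with very short 3' UTRs. Red marks cytosolic ribosomal protein genes, blue marks respiratory chain and ATP synthase genes and grey the other genes; ribosomal protein genes have a median of 41 bases and respiratory genes of 90.

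The length was the same in both arms for 563 of the 1324 genes (42.5%) and within 10 bases for 921 (69.6%). It was longer with picrotoxin for 444 genes and shorter for 317, and the picrotoxin median was 90 bases. The limit of 150 bases was set on the control arm alone. That by itself favours longer values in the other arm, so nothing is read from this excess. A difference of 100 bases or more was a longer 3' UTR in 85 genes and a shorter one in 4. The rule bounds this comparison on both sides, since a gene of at most 150 bases cannot shorten by more than that and a gene that differed by 500 bases or more was left out. The authors pooled the libraries of an arm for these lengths, so they carry no replicate error. Within that bound the largest differences were those of Gstcd (99 to 597 bases), Serpinb2 (131 to 626), Mob1a (30 to 524), Cd55 (80 to 562) and Adra1b (57 to 522). Serpinb2 encodes an inhibitor of plasminogen activators that neurons express after strong activity. Its scaled counts, that is, numbers of fragments scaled for the size of each library, stood at 92.5, 22.5 and 41.3 in the control libraries (cultures 3, 10 and 20, the order kept below) and at 131, 83.5 and 266 in the picrotoxin libraries. The arms overlapped, with the highest control library above the lowest picrotoxin library, and the log2 fold change of 1.67 (SE 0.51) did not pass the limma test (adjusted p = 0.113).

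The 5' UTRs of the same genes were short as well. Of 1279 genes with a 5' length in both arms the median was 90 bases in control and 89 in picrotoxin cultures, against 128 bases in 7703 other genes with lengths. The 5' UTR was longer than the 3' UTR in 705 of them (55.1%) and in 9.45% of the other genes. The limit on the 3' length builds in this contrast, so nothing about the 5' UTR is read from it. Over classes of rising 3' length, 150 bases or less, 151 to 500, 501 to 1500 and over 1500, the median 5' length was 90, 109, 128 and 148 bases. The median span of the locus in the same order was 13546, 16204, 23580 and 42357.5 bases. Genes with very short 3' UTRs had the lowest median of the 4 classes for both.

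Of the lists of genes sorted by function, the cytosolic ribosomal proteins were nearly all short at the 3' end: 77 of 81 genes with lengths (95.1%), with a median of 41 bases and a range of 3 to 135. The 4 others were Rpl13a (406 bases), Rps6 (290), Rpl41 (271) and Rpl39 (263). Subunits of the respiratory chain and ATP synthase followed with 51 of 78 genes (65.4%; median 90 bases), and then proteasome subunits with 25 of 44 (56.8%; median 89). Mitochondrial ribosomal proteins had 31 of 74 genes (41.9%; median 87) and translation factors 19 of 62 (30.6%; median 72). Sm and LSm proteins of the spliceosome had 7 of 33 genes (21.2%), and factors for the assembly and import of mitochondrial proteins 6 of 35 (17.1%). Below the 14.2% of all genes with lengths were RNA polymerase subunits (3 of 25), secreted peptides and their processing enzymes (3 of 25), subunits of the V-ATPase and of small transport complexes (5 of 51) and histones (0 of 6). The ribosomal proteins were also short at the 5' end, with a median of 51 bases, as were the respiratory genes with 52. In all, 228 of the 1324 genes were in a list, markers of cell types included.

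**Figure D2:**
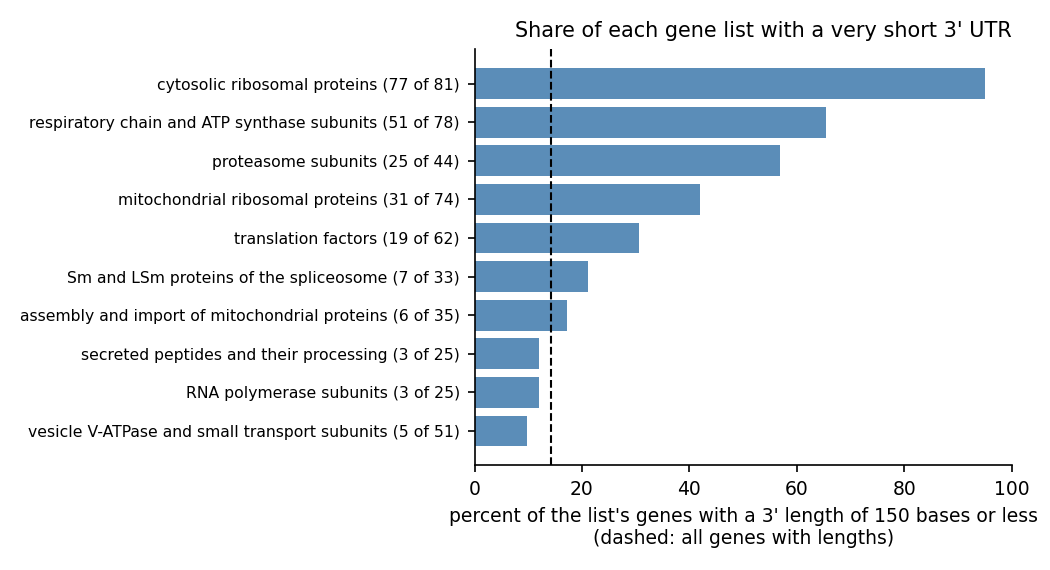
Percent of the genes of each functional list that have a 3' length of 150 bases or less in control cultures (horizontal axis), with the numbers of genes beside each list name. The dashed line is the 14.2% of all genes with lengths; cytosolic ribosomal proteins stand at 95.1% and V-ATPase and small transport subunits at 9.80%.

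Ribosomal protein genes were crowded at the short end of the range. Of the 77, 14 had a 3' length of 1 to 25 bases and 45 had 26 to 50 bases, while 1 had more than 125 bases. The 51 respiratory genes were spread more evenly: 2 had 1 to 25 bases, 4 had 26 to 50, 11 had 51 to 75, 14 had 76 to 100, 11 had 101 to 125 and 9 had 126 to 150. The bin of 26 to 50 bases had the highest median level of the 6 bins, 31.6 FPKM, and that of 76 to 100 bases the lowest, 17.3 FPKM. FPKM, the authors' number of fragments set against transcript length and library depth, is the scale on which levels of different genes are compared here.

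A level was matched to 1241 of the 1324 genes, and 83 had none; Rpl26, Rpl28, Rpl7a, Atp5g3, Ftl1 and Cort are among the latter. Of the 1241, 1186 reached an FPKM of 1 in at least 1 arm and were tested, and 55 did not. The tested genes had a median control FPKM of 21.9, with a 10th percentile of 2.69 and a 90th of 240, against a median of 16.5 for the 12046 genes tested in all, many of which have no listed length. Among genes with lengths they did not stand out: over the 4 classes of rising 3' length the median control FPKM of tested genes was 21.9, 26.2, 23.4 and 18.7. Among the 100 most abundant genes with lengths and a level, 35 had a very short 3' UTR, and among the top 500, 136 had one. The most abundant was Atp5b, the catalytic beta subunit of ATP synthase, at 1047 FPKM in control and 1091 in picrotoxin cultures. Fth1, the ferritin heavy chain that stores iron, had 958 and 966 FPKM, and Mt3, a metallothionein of the brain, had 927 and 818. The small ATP synthase subunits Atp5i and Atp5l had 920 and 857 FPKM in control cultures, and the cytochrome c oxidase subunit Cox6c had 801. Ribosomal protein genes had a median of 310.0 FPKM and respiratory genes of 323, against 149 for proteasome subunits, 62.3 for translation factors and 45.2 for mitochondrial ribosomal proteins.

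Scaled totals of the 6 libraries were between 12304776 and 12982866 fragments, within a factor of 1.06 of each other. The labelled tissue was checked with marker lists. Summed scaled counts were 32308 to 34317 in control and 24223 to 28141 in picrotoxin libraries for excitatory neurons, and 16753 to 23900 and 19843 to 30981 for interneurons. Astrocyte markers summed to 7976 to 10445 and 7560 to 9899, and microglia markers to 2.70 to 4.24 and 4.18 to 11.7, with Itgam at 0. Of the 9 tested excitatory markers, 1 was called higher and 1 lower with picrotoxin by limma, with a median log2 fold change of -0.24. Of the 9 tested interneuron markers 0 were called higher and 1 lower (median 0.30), and of the 8 tested astrocyte markers 0 were called (median -0.32). A sum is weighted to its most abundant markers. In bulk RNA, fewer cells of a type, less RNA per cell and a change in single markers cannot be told apart. Culture 20 was the lowest of each arm: genes with very short 3' UTRs gave 8.32% and 8.38% of the fragments in its control and picrotoxin library, and between 8.66% and 9.20% in the other 4. Ribosomal protein genes gave 0.914% and 0.887% in culture 20 and between 1.01% and 1.12% in the others. Within each culture the share of genes with very short 3' UTRs was higher in the picrotoxin library, from 8.92% to 8.97% in culture 3, from 8.66% to 9.20% in culture 10 and from 8.32% to 8.38% in culture 20. The difference was small beside that between cultures, except in culture 10, and was not tested.

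The study set picrotoxin against vehicle, each applied for 48 h; activity of the cultures is not among the data used here. Of the 1186 tested genes with very short 3' UTRs, 18 were higher and 6 were lower with picrotoxin by limma on log2(scaled count + 1), with a Benjamini-Hochberg adjusted p under 0.05. These are 1.52% and 0.506% of them, against a background of 1.67% higher, 1.62% lower and 3.29% in either direction over the 12046 genes tested. The lengths come from the same libraries, and their difference between arms entered the rule, so nothing is read from these shares. The median log2 fold change was 0.03, against -0.01 over all genes tested. Taken within each culture it was 0.01, 0.09 and 0.00 for cultures 3, 10 and 20, and it lay between 0.00 and 0.07 when single libraries were left out. The share of genes within 0.2 of 0 on that scale was 73.8%, 72.5%, 70.7% and 64.3% over the 4 classes of rising 3' length, and 64.7% over all genes tested. Over the same classes the share called lower was 0.506%, 1.18%, 2.17% and 2.65%, and the share called higher 1.52%, 1.79%, 1.79% and 1.24%. The median log2 fold change in the same order was 0.03, 0.03, -0.00 and -0.06, and with culture as a block the share called in either direction was 13.1%, 18.0%, 22.1% and 27.0%. The arms did not overlap for 131 genes that were higher and 77 that were lower with picrotoxin, against a background of 11.6% higher and 11.8% lower over all genes tested. With culture as a block, 104 genes with very short 3' UTRs were higher and 51 lower (8.77% and 4.30%, against 9.65% and 10.4% of all genes tested), among them the 24 called without it. Gpr22, an orphan receptor of the brain whose locus overlaps that of Cog5, passed with the block alone (log2 fold change 0.39, limma adjusted p = 0.151 without and 3.74e-04 with it).

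**Figure D3:**
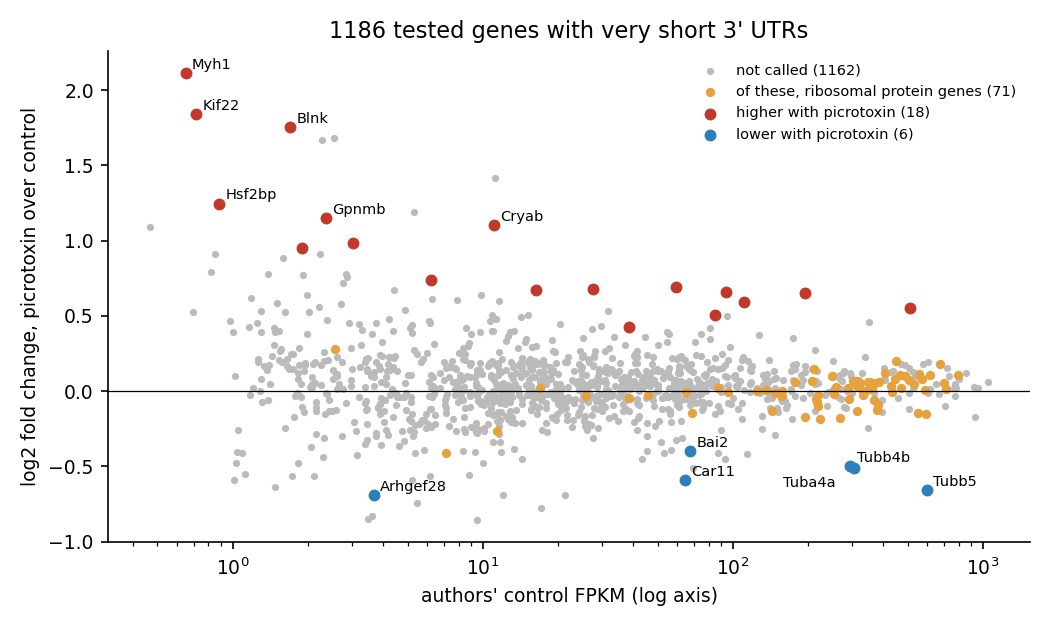
Log2 fold change of picrotoxin over control (vertical axis) against the authors' control FPKM on a log axis (horizontal axis) for the 1186 tested genes with very short 3' UTRs. Red and blue points are the 18 genes called higher and the 6 called lower, and orange points the 71 ribosomal protein genes, none of them called; the 3 tubulin genes are the called genes of highest level among the 6 lower ones.

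Tubulin genes were the most abundant genes that fell. Tubb5 encodes a beta-tubulin, the partner of alpha-tubulin in microtubules, at chromosome 20, 5519550 to 5523476 in the authors' table. It had 14353, 15012 and 17229 scaled counts in the control libraries of cultures 3, 10 and 20, and 8865, 9888 and 10730 in the picrotoxin libraries. Every picrotoxin library was below every control library, and the mean fell from 15531 ± 1507 to 9828 ± 934 (SD, n = 3), 1.58-fold lower, with a log2 fold change of -0.66 (SE 0.10, limma adjusted p = 0.00886). Tuba4a, an alpha-tubulin of mature neurons with a 3' length of 17 bases, had 4862, 4749 and 5586 in control and 3310, 3751 and 3565 in picrotoxin cultures. The arms of Tuba4a did not overlap, and its log2 fold change was -0.51 (SE 0.09, limma adjusted p = 0.0167). Tubb4b, another beta-tubulin, had 5163, 4929 and 5792 in control and 3427, 3842 and 3961 in picrotoxin cultures. Again the arms were apart, with a log2 fold change of -0.50 (SE 0.09, limma adjusted p = 0.0190). Tubulin genes are near-identical in much of their coding sequence, so the authors' counting could divide reads among them and each single value is uncertain.

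The other genes that fell have different roles. Car11 encodes a secreted relative of the carbonic anhydrases without enzyme activity; it had 914, 1004 and 966 scaled counts in control and 616, 719 and 584 in picrotoxin cultures. Its highest picrotoxin library was below its lowest control library, and the log2 fold change was -0.59 (SE 0.10, limma adjusted p = 0.0180). Arhgef28, an exchange factor for RhoA that also binds RNA, had 255, 305 and 308 in control and 171, 181 and 184 in picrotoxin cultures. It was 1.62-fold lower, with arms apart and a log2 fold change of -0.69 (SE 0.12, limma adjusted p = 0.0190). Bai2, an adhesion G-protein-coupled receptor, had 4237, 4202 and 4398 in control and 3352, 3393 and 3006 in picrotoxin cultures. Its arms did not overlap either, and the log2 fold change was -0.40 (SE 0.08, limma adjusted p = 0.0255). Its listed 3' length was 22 bases in control and 293 in picrotoxin cultures.

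The largest rises were in genes of low level. Myh1, a myosin heavy chain of fast skeletal muscle, had 57.4, 42.2 and 49.8 scaled counts in control and 155, 158 and 419 in picrotoxin cultures. Every picrotoxin library was above every control library, with culture 20 far above the other picrotoxin libraries. The mean rose from 49.8 ± 7.59 to 244 ± 152 (SD, n = 3), with a log2 fold change of 2.11 (SE 0.34, limma adjusted p = 0.0142). Kif22, a kinesin that moves chromosomes in dividing cells, had 26.3, 16.2 and 8.48 in control and 68.0, 60.6 and 47.1 in picrotoxin cultures. Its arms did not overlap (log2 fold change 1.84, SE 0.36, limma adjusted p = 0.0261). Markers of dividing cells summed to 127 to 137 scaled counts in control and 147 to 182 in picrotoxin libraries, and 0 of the 3 tested passed; their part in the change of Kif22 was not tested. Hsf2bp, which acts in recombination in the germ line, had 29.2, 22.5 and 17.0 in control and 49.6, 54.3 and 59.6 in picrotoxin cultures. The arms of Hsf2bp were apart (log2 fold change 1.25, SE 0.24, limma adjusted p = 0.0252). Myh1, Kif22 and Hsf2bp reached the FPKM of 1 in picrotoxin cultures alone, and kept their calls with no filter on level (limma adjusted p of 0.00881, 0.0163 and 0.0223). Reads of myosin heavy chain genes can be shared between near-identical copies.

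Blnk, an adaptor of signalling in B cells and myeloid cells, and Gpnmb, a glycoprotein of lysosomes and of activated phagocytes, also rose. Blnk had 62.3, 22.5 and 19.1 in control and 111, 74.1 and 135 in picrotoxin cultures, and Gpnmb had 70.1, 62.0 and 64.6 and then 132, 157 and 152. For both genes every picrotoxin library was above every control library, though control culture 3 was high for Blnk. The log2 fold change of Gpnmb was 1.15 (SE 0.15, limma adjusted p = 0.00687) and that of Blnk 1.75 (SE 0.41, limma adjusted p = 0.0496). The call of Blnk was lost with a filter of 5 FPKM (adjusted p = 0.0541), with median-ratio scaling (0.0503) and with a pseudocount of 0.1 (0.0513). The summed microglia markers were at 2.70 to 4.24 scaled counts in control and 4.18 to 11.7 in picrotoxin libraries, and none of them reached the FPKM of 1; their part in these changes was not tested. Clic1, a chloride channel protein, had 42.8, 34.2 and 42.4 in control and 70.0, 66.8 and 106 in picrotoxin cultures (log2 fold change 0.98, SE 0.22, limma adjusted p = 0.0447). Its arms did not overlap, and picrotoxin culture 20 was the highest library. Tnni3k, a kinase of heart muscle, had 74.0, 65.6 and 68.9 in control and 117, 189 and 112 in picrotoxin cultures, again with arms apart (log2 fold change 0.95, SE 0.21, limma adjusted p = 0.0406).

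Cryab, a small heat shock protein that keeps damaged proteins soluble, had 180, 151 and 132 scaled counts in control and 372, 374 and 259 in picrotoxin cultures. All picrotoxin libraries were above all control libraries, with picrotoxin culture 20 the lowest of its arm, and the log2 fold change was 1.10 (SE 0.18, limma adjusted p = 0.0138). Sec61b, a subunit of the channel through which new proteins enter the endoplasmic reticulum, had 611, 570 and 486 in control and 885, 907 and 725 in picrotoxin cultures. Its arms were apart, and it rose by 0.59 on the log2 scale (SE 0.12, limma adjusted p = 0.0328). It was the 1 call among the 5 tested genes of the V-ATPase and small transport list; with culture as a block 2 passed, the second being Trappc13 (adjusted p = 0.0355), named after its values were seen. Ddost, a subunit of the enzyme that attaches sugar chains in the same compartment, had 1305, 1282 and 1346 in control and 1705, 1825 and 2063 in picrotoxin cultures. Ddost rose by 0.50 with arms apart (SE 0.09, limma adjusted p = 0.0198). Cd63, a membrane protein of late endosomes and exosomes, had 807, 662 and 610 in control and 1111, 1243 and 924 in picrotoxin cultures, a log2 fold change of 0.66 with arms apart (SE 0.14, limma adjusted p = 0.0328). Ddost and Cd63, like Gsto1, Mif and Cabp1 below, fall outside the naming rule and were chosen after their values were seen.

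Gsto1, a glutathione transferase, had 1991, 1743 and 1586 scaled counts in control and 2809, 3122 and 2430 in picrotoxin cultures, and Mif, a secreted cytokine with tautomerase activity, had 2716, 2596 and 2178 and then 3741, 4163 and 3092. For both genes culture 20 was the lowest of each arm, yet the arms did not overlap. The log2 fold changes were 0.65 for Gsto1 (SE 0.12, limma adjusted p = 0.0190) and 0.55 for Mif (SE 0.12, limma adjusted p = 0.0425). Mrap2, an accessory protein of melanocortin receptors, had 237, 244 and 247 in control and 365, 393 and 405 in picrotoxin cultures. The libraries of each arm lay close together, and Mrap2 rose by 0.67 (SE 0.10, limma adjusted p = 0.0119). Cited1, a transcriptional co-regulator without DNA binding of its own, had 261, 208 and 245 in control and 340, 354 and 455 in picrotoxin cultures, with arms apart and a log2 fold change of 0.68 (SE 0.14, limma adjusted p = 0.0344). Cabp1, a calcium-binding protein of neurons related to calmodulin, had 432, 455 and 416 in control and 607, 584 and 563 in picrotoxin cultures. Its arms were apart as well (log2 fold change 0.43, SE 0.09, limma adjusted p = 0.0391), and its call was lost with no filter on level (adjusted p = 0.0502). It is the 1 called gene of the 24 that the authors' deposited table does not mark, with a q-value of 0.0990 there. The authors mark 58 genes with very short 3' UTRs at a q-value under 0.05, 38 higher and 20 lower. Among them are Serpinb2 (authors' q-value 0.00155) and Gpr22 (0.0247), which limma without the block did not call.

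Lrrc48, a part of the complex that regulates dynein arms in motile cilia, rose from 133 ± 20.2 to 223 ± 32.8 scaled counts (SD, n = 3; log2 fold change 0.74, SE 0.16, limma adjusted p = 0.0396). Dhps, the enzyme that makes hypusine in the translation factor eIF5A, had 1064, 831 and 779 in control and 1444, 1536 and 1303 in picrotoxin cultures. The arms of Lrrc48 and of Dhps did not overlap, and Dhps rose by 0.69 (SE 0.13, limma adjusted p = 0.0198). The locus of Dhps overlaps that of Wdr83, whose mean level was 277 scaled counts, and the counting is not stated to use strand, so reads of the pair cannot be told apart. The listed 3' length differed by 100 bases or more between arms in 6 of the 24 called genes, each longer with picrotoxin: Bai2, Cabp1 (85 to 424 bases), Tnni3k (79 to 424), Gpnmb (98 to 457), Hsf2bp (103 to 461) and Blnk (70 to 216). Of all 1324 genes with very short 3' UTRs, 85 (6.42%) were longer by as much and 4 (0.302%) shorter. All of the 6 but Hsf2bp had under 100 bases in control cultures and could not shorten by 100. Nothing is read from their direction.

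**Figure D4:**
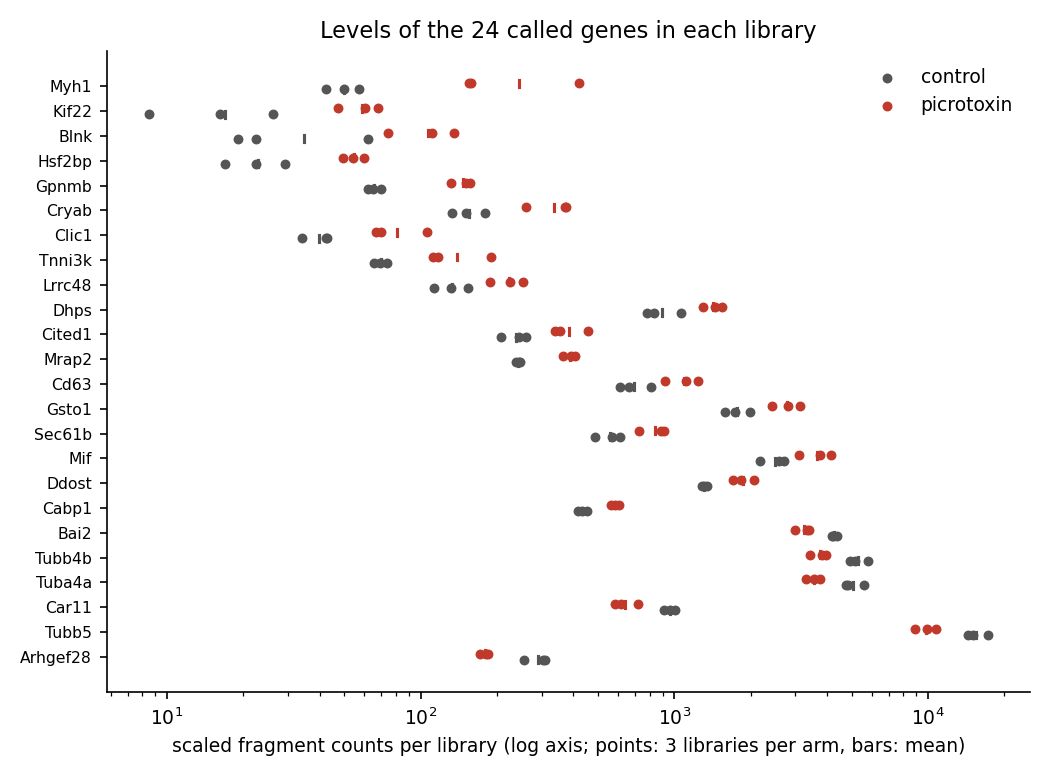
Scaled fragment counts in each library on a log axis (horizontal axis) for the 18 genes called higher and the 6 called lower with picrotoxin, in order of log2 fold change. Points are the 3 libraries of each arm, grey for control and red for picrotoxin, and short bars the means; the arms do not overlap for any of the 24 genes, and those of Tubb5 lie highest.

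Ribosomal protein genes with very short 3' UTRs gave 0 calls in either direction among 71 tested, by limma; with culture as a block 1 was higher, Rpl10 (block adjusted p = 0.0425), named after its values were seen. Their median log2 fold change was 0.01, with 42 genes above 0 and 29 below, and a range of -0.41 to 0.28. Of all genes tested 3.29% were called in either direction. Thus 0 calls in a list of this size or smaller is not read as a result, here or below. Rpl35, a protein of the large subunit, had 2588, 2527 and 2324 scaled counts in control and 2529, 2775 and 2216 in picrotoxin cultures, and Rps29, of the small subunit, had 1529, 1375 and 1226 and then 1507, 1730 and 1228. In both genes culture 20 was the lowest library of each arm and the arms overlapped. The log2 fold change was 0.01 for Rpl35 (SE 0.10, limma adjusted p = 0.971) and 0.10 for Rps29 (SE 0.13, limma adjusted p = 0.765). Rps4x is the 1 ribosomal gene of the list whose arms did not overlap, at 62.3, 56.6 and 53.0 in control and 42.8, 44.9 and 40.8 in picrotoxin cultures, and it did not pass the test (log2 fold change -0.41, SE 0.18, limma adjusted p = 0.267). Ribosomal protein genes have many processed copies in the genome, so single values, that of Rps4x at 7.16 FPKM in particular, are uncertain. The locus matched to Rps4x spans 792 bases of chromosome 4, and whether it is such a copy was not tested.

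Respiratory chain and ATP synthase genes gave 0 calls among 50 tested by limma, while 44 of the 50 had a log2 fold change above 0 and 6 below, with a median of 0.10 and a range of -0.16 to 0.23. With culture as a block, 2 were higher, Cox5b (adjusted p = 0.0434) and Ndufc2 (adjusted p = 0.0175), both named after their values were seen. The 23 tested respiratory genes with a longer 3' UTR or a larger difference had a median of 0.06. Over all 86 tested genes of this list, with or without a listed length, the median was 0.10, and 1 was called higher and 0 lower by limma. The share of genes above 0 was not tested. Atp5b had 21201, 20809 and 22967 scaled counts in control and 21350, 23475 and 23003 in picrotoxin cultures, with arms that overlapped and a log2 fold change of 0.06 (SE 0.07, limma adjusted p = 0.734). Ndufb7, a subunit of complex I, had 1243, 1148 and 1137 in control and 1274, 1489 and 1304 in picrotoxin cultures. Its picrotoxin libraries all lay above its control libraries, by a margin that did not pass the test (log2 fold change 0.20, SE 0.09, limma adjusted p = 0.297).

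The remaining lists gave few calls. Mitochondrial ribosomal proteins had 0 calls among 29 tested genes, a median log2 fold change of 0.05 and 24 genes above 0. Among them Dap3, of the small mitochondrial subunit, had 834, 807 and 788 in control and 1065, 1046 and 905 in picrotoxin cultures, with arms apart. With culture as a block 2 were higher, Dap3 and Mrps24 (adjusted p = 0.00691), the latter named after its values were seen. Dap3 did not pass the limma test (log2 fold change 0.31, adjusted p = 0.118) and did pass once culture was a block (0.00370). Proteasome subunits had 0 calls among 23, with a median of -0.00, and translation factors 0 among 18, also with a median of -0.00; the sign of both medians turns with other scalings of the libraries. Among translation factors, Eef1a1, which brings aminoacyl-tRNA to the ribosome, had 767 and 776 FPKM in control and picrotoxin cultures (limma adjusted p = 0.928). Eif2b3, a subunit of the exchange factor for eIF2, passed with the block alone (log2 fold change -0.25, limma adjusted p = 0.266 without and 0.0344 with the block). Among spliceosome proteins 0 of 6 passed, and Snrnp48 passed with the block alone (log2 fold change 0.35, limma adjusted p = 0.183 and 0.00509). Npy, an inhibitory peptide of interneurons with a 3' length of 80 bases, had 25.3, 35.1 and 24.4 scaled counts in control and 36.0, 35.5 and 46.0 in picrotoxin cultures. The arms of Npy were apart by less than 1 scaled count, and it did not pass (log2 fold change 0.47, SE 0.23, limma adjusted p = 0.349). Slc32a1, which loads GABA into synaptic vesicles and has a listed 3' length of 35 bases, stood at 77.8 FPKM in control cultures and had a log2 fold change of 0.00 (limma adjusted p = 0.999).

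**Figure D5:**
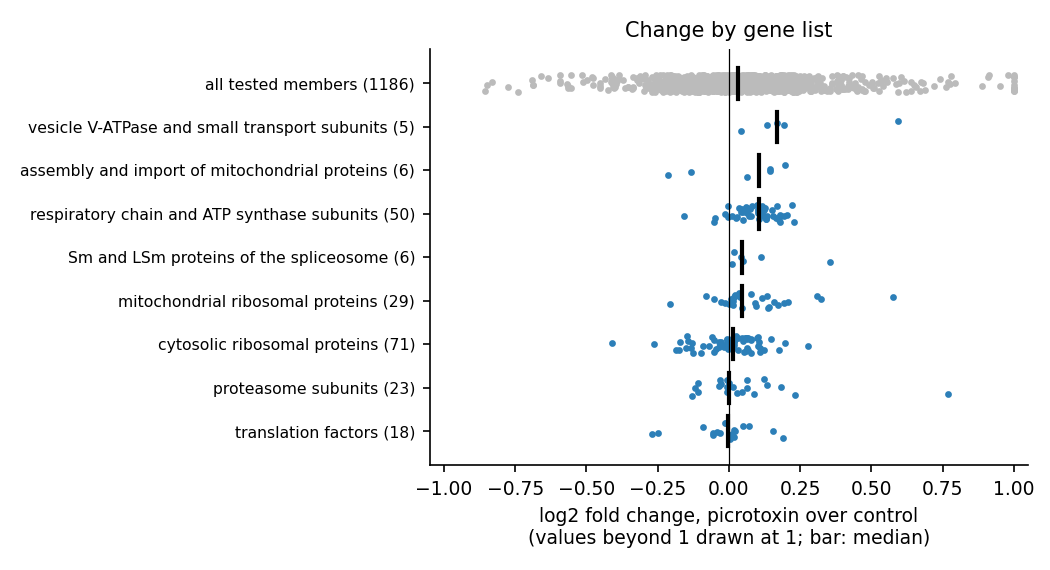
Log2 fold change of picrotoxin over control (horizontal axis) for the tested genes with very short 3' UTRs, all of them in grey and those of each functional list in blue, with the number of genes in parentheses and a bar at the median. The median was 0.01 for cytosolic ribosomal proteins, 0.10 for respiratory genes and 0.03 for all 1186 genes.

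Each call rests on few libraries. Without control culture 10, 0 of the 24 genes stayed called by limma, and over all 12046 genes tested 15 were called higher and 14 lower. An unadjusted limma p under 0.05 was then found for 94 of the 1186 tested genes with very short 3' UTRs and for 1422 of the 12046. Without control culture 20, 18 of the 24 lost their call, and over all genes tested 98 were called higher and 81 lower. Tubb5, Gpnmb, Mrap2 and Myh1 kept their calls in 5 of the 6 omissions of a single library, and without control culture 10 their adjusted p was 0.0562, 0.0532, 0.0744 and 0.0788 by limma. In limma without trend and robust, Tubb5 (adjusted p = 0.0556) and Myh1 (0.0596) lost their calls, while Gpnmb and Mrap2 kept theirs.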

How the data were processed

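PolyA RNA was sequenced in 6 libraries, 3 per arm; the 6 small RNA libraries of the same RNA were not used. Tools named in the submitters' processing notes are bedtools 2.22.1, STAR 2.3.1z12, Cuffdiff, Cuffnorm and Cufflinks 2.2.1, without their roles; the sources used here name no genome build. The gene table deposited by the authors holds a signal, the number of fragments of each gene scaled by 1 factor per library. The authors' comparison table, per the file headers, gives FPKM per arm, a p-value and a q-value. The deposited UTR table gives lengths in bases per gene model and arm, with libraries pooled. Loci are as in the authors' table.

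Of 11254 entries for 10584 gene names, medians were taken per name. Levels were matched by gene symbol; for 27 genes with several identifiers, that of highest mean level was used. Genes with an FPKM of 1 or more in an arm were tested with limma 3.58.1 (trend, robust) in R 4.3.3 on log2(scaled count + 1), two-sided, with Benjamini-Hochberg adjustment over 12046 genes and a threshold of 0.05. The script was tested on simulated data. FPKM per library had been assumed in the design; the table holds scaled counts, so these were tested. Fold changes on this scale are understated for low genes.

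The labels' numbers pair the libraries here: those with equal numbers deviated together from the means of their arms (r = 0.44 for 3, 0.45 for 10 and 0.59 for 20). Block values are given where they change the call of a named gene or the count of a list. What the numbers mark is not stated, so p-values measure the spread between these libraries.

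The genes, the lists and the naming rule were chosen with earlier results of these data known. The rule names the 6 most abundant genes, up to 12 called genes in each direction by size of change with arms apart, up to 3 of the most abundant genes per list, genes at the ends of the length range and at its limit, the 5 largest length differences, and list genes whose arms do not overlap. Alternatives were the block, other pseudocounts, filters and scalings, limma without trend and robust, other length limits and gene models, and the omission of each library. Promoters came from RefSeq (GRCr8), matched by symbol. Results of a few genes are not reported here.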

Additional observations from a re-analysis of the deposited data

How the results depend on the processing

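Of all genes tested with limma 201 were higher and 195 lower, and of genes with very short 3' UTRs 18 and 6. With culture as a block, which pairs libraries of the same number, these counts were 1162 and 1251, and 104 and 51. Without trend and robust they were 94 and 65, and 4 and 1, and 19 of the 24 calls were lost. With both libraries of culture 20 left out, chosen after seeing the data, they were 487 and 595, and 43 and 23, and Blnk lost its call. When single libraries were left out, all genes ranged from 15 to 378 higher and 14 to 516 lower, and genes with very short 3' UTRs from 0 to 38 higher and 0 to 16 lower. Both lowest counts came without control culture 10 and both highest without picrotoxin culture 20. For genes with very short 3' UTRs the counts without control culture 20 were 5 and 1, without control culture 3 they were 11 and 4, without picrotoxin culture 10 they were 3 and 3, and without picrotoxin culture 3 they were 4 and 1. A limit of 100 bases for the 3' length gave 11 higher and 2 lower of 725 genes, and one of 200 bases gave 28 higher of 1618. Other pseudocounts (0.1 or 5), other filters (none, or 5 FPKM), scaling by median ratios or by equal totals, the shortest or longest gene model and a length difference under 50 bases kept both counts within 1.5 times, though Blnk or Cabp1 lost its call under some of them. The median log2 fold change of genes with very short 3' UTRs, 0.03, was 0.06 with equal totals, 0.02 with a limit of 100 bases and between 0.00 and 0.07 when single libraries were left out, lowest without picrotoxin culture 10 and highest without picrotoxin culture 20. Under each of these alternatives no value given for a named gene changed sign with a call. The cause of these shifts was not tested, except that a lower limit leaves fewer genes. No read depth per library is given beside the scaled counts, which limits what can be said of genes with few fragments.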
